A study of Mus musculus with 6 samples.

Results

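Most TRIM proteins are ubiquitin ligases built on a RING finger, B-box domains and a coiled coil, with a C-terminal part that sets what each one binds. Several are induced by interferon and act in antiviral defence, by recognising viral capsids or antibody-coated viruses or by tuning the sensors of viral RNA. Others serve as chromatin cofactors, microtubule-binding proteins or regulators of protein turnover.

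The family was examined in the proximal colon of heterozygous mice with 1 Mthfd1 allele disrupted by a gene trap (genotype Mthfd1/+, 3 arrays) and of wild-type mice (3 arrays). All mice were 8 weeks old and had eaten the defined AIN-93G diet for 5 weeks since weaning, so the comparison asks how the colon of the genotypes differs without any other treatment. The trap is carried by all cells of the animal, and its site within the gene, the strain and the sex are not given in the labels. Each array is labelled as a separate biological replicate. The members are all probe sets whose only platform gene symbol begins with Trim and a digit, which gave 64 of the 22626 probe sets that are not controls and 39 of the 12393 genes. Of these genes, 7 are listed here as interferon-inducible from the literature (Trim12a, Trim21, Trim25, Trim26, Trim30a, Trim30d and Trim34a). The 32 not on that list are grouped as other TRIM genes, whatever their response to interferon. A further 4 probe sets that name a TRIM gene beside another gene were left out.

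The arrays bore the marks of colon. All 10 epithelial markers on the array and all 5 smooth muscle markers gave signal above the floor used here, the 40th percentile of mean signal (95.8 scaled intensity units), whereas 0 of 20 genes of other organs did, the highest averaging 77.3. In a separate list of 6 skeletal muscle markers, 2 were above the floor, Ckm averaging 493.5 and Acta1 195. Ileal genes varied widely within both genotypes, Fabp6 between 382.3 and 5621.6 in heterozygous arrays and between 93.5 and 5661.9 in wild-type arrays. The trapped gene read 453.1, 509.6 and 549.4 in heterozygous colon, against 949.9, 838.6 and 881.4 in wild-type colon, at the brightest Mthfd1 probe set; whether it lies downstream of the trap is not given in the labels. Over all 13576 tested probe sets, 0 passed a limma adjusted p of 0.05, and 771 had an unadjusted p under that level.

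The TRIM genes that colon expresses were first counted against the floor. Signal reached it for 27 of the 39 genes, or 69.2%, close to the 66.5% of all genes on the array, and for 17 genes with the floor at the 60th percentile. Array signals are not comparable between probe sets, so the values below describe each gene and do not rank them. The floor was passed by 6 of the 7 interferon-inducible genes and by 21 of the 32 others. Signals were well above it for Trim2, Trim25, Trim28 and Trim31, with means over the 6 arrays of 2953.3, 2667.2, 1339.4 and 1187.2. Trim2 is a ligase best known from neurons, Trim28 (KAP1) the corepressor of KRAB zinc-finger proteins, and Trim31 a ligase of gut epithelium. The 12 genes below the floor averaged 4.63 to 70.7, within the range of the genes of other organs (1.72 to 77.3). Among them were the striated muscle gene Trim54 (4.63), the testis gene Trim69 (14.3), the erythroid gene Trim10 (33.9) and Trim29, a gene of stratified epithelia (70.7). Of the chromosome 7 cluster, Trim6 (51.7) and Trim30d (55.1) also lay below it. The threshold separated Trim12a, at 109.37 just inside, from Trim29, at 70.7 just outside. A low signal can also come from a poor probe, since 2 of the 3 Trim8 probe sets and 1 of the 2 Trim44 probe sets lay below the floor while their partner lay above.

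The promoter sequences of the interferon-inducible genes are shown, since reported induction by interferon defines the class. The interferon-stimulated response element, the site that IRF and STAT proteins bind, was searched as GAAA, then NN, then GAAA again. When it lies on the other strand it reads TTTC, NN and TTTC, where N is any base. Sequences are from RefSeq, build GRCm38.p6, in windows of 250 bases before to 50 after each transcript start, read 5′ to 3′ along the gene. Capitals mark each match with overlapping matches joined.
Trim34a, chr7:104244447-104244486, plus strand: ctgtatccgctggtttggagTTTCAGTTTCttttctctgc
Trim30a, chr7:104465200-104465249, minus strand: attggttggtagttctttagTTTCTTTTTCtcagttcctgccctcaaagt
Trim30d, chr7:104507861-104507910, minus strand: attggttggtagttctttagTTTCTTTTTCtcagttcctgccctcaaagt
Trim21, chr7:102565453-102565489, minus strand: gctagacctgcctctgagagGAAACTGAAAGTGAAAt
Trim12a, chr7:104315466-104315505, minus strand: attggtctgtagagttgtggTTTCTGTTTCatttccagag
Trim26, chr17:36836966-36837021, plus strand: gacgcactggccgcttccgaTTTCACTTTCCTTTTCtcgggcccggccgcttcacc
Trim25, chr11:88999343-88999432, plus strand, no match: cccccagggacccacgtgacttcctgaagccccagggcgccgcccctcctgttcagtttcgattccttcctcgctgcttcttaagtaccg
Ifit1, an interferon-induced gene outside the family, chr19:34640765-34640833, plus strand: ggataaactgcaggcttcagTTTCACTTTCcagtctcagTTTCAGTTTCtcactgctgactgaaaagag
Pml, an interferon-induced TRIM-type gene under another symbol, chr9:58249757-58249846, minus strand, no match: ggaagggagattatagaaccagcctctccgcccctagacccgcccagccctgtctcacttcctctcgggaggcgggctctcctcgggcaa

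A match lay in the windows of 6 of the 7 interferon-inducible TRIM genes. The first match began 10 bases after the annotated start in Trim34a and Trim12a and 13 after it in Trim21. It began 36 bases before the start shown for Trim30a, 41 before that of Trim30d and 160 before that of Trim26. A second listed start of Trim30a also held a match, beginning 2 bases after it. Among the other TRIM genes, 24 were matched in the promoter table and 1 of them held the motif, at 1 of the 5 listed starts of Trim2. Of 13 interferon-induced genes outside the family that were matched in the table, 8 held it (61.5%). Over all 27025 genes of the table, 3.99% held it in at least 1 window, and 3.44% of the 32851 windows did. The Trim25 and Pml windows held no match with these letters, which says nothing about the factors that bind there. The Trim30a window at the start shown and the Trim30d window shared 93.6% of 295 aligned bases. These genes lie side by side as recent copies, and the array signal of each may include RNA of the other or of neighbours that have no probe set of their own here.

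Every interferon-inducible TRIM gene above the floor had higher mean signal in heterozygous colon, and Trim34a was the one among them with groups that did not overlap. The median log2 fold change of the 6 genes was 0.37, against 0.01 for all 8243 tested genes, of which 51.5% were positive. The 4 members with the largest values, Trim34a, Trim30a, Trim25 and Trim21, had a median of 0.50, a rise that this choice fixes in advance. In whole colon, more cells of a type and more RNA per cell cannot be told apart. No member passed the threshold over all probe sets (0 of 40 tested TRIM probe sets, limma, against a background of 0% over all probe sets, where the smallest adjusted p was 0.0583). At an unadjusted p under 0.05, 2 of the 6 genes were higher and 0 lower, where 3.15% of all tested genes were higher and 2.18% lower. The count of 2 was 1 without heterozygous replicate 2, heterozygous replicate 3 or wild-type replicate 1, and at most 4 under the other settings. For 1 of the 6 the groups did not overlap in that direction, where this held for 5.58% of all tested genes. Both classes hold few genes and were chosen with earlier results of these arrays known, so these counts are descriptions.

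**Figure D1:**
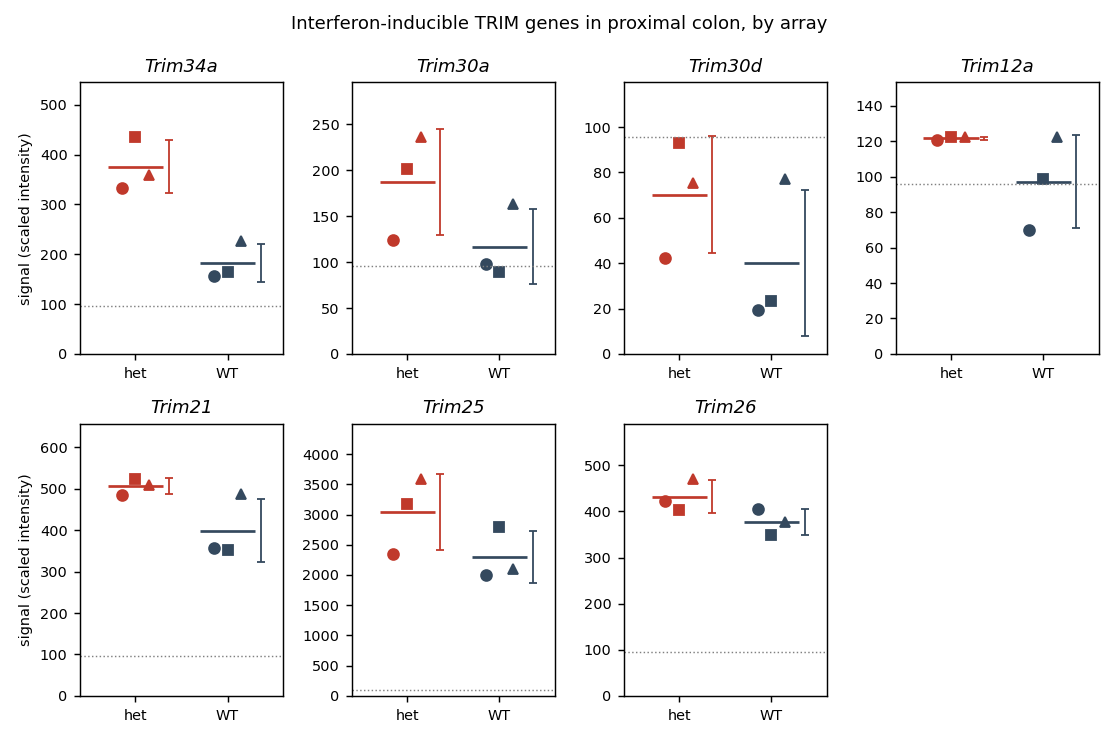
Signal (linear scaled intensity, vertical axis from 0) of the 7 interferon-inducible TRIM genes at their brightest probe set, 1 point per array (circle, square and triangle for replicates 1, 2 and 3), heterozygous left and wild-type right. Horizontal bars are means, vertical bars SD (n = 3 each), and the dotted line is the floor of 95.8; the groups are separate for Trim34a and overlap for the other 6.

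Trim34a belongs to the chromosome 7 cluster around the antiviral Trim5, and its human counterpart acts with TRIM5 on retroviral capsids. It read 332.4, 436 and 359.9 in heterozygous arrays, against 157.1, 164.5 and 227.1 in wild-type arrays. Every heterozygous array was above the highest wild-type array. The log2 fold change was 0.99 (SE 0.17, 95% interval 0.60 to 1.38), a 1.98-fold higher signal, with a limma adjusted p of 0.192 over all probe sets. That p ran from 0.0897 to 0.807 as single arrays were left out, and the log2 fold change from 0.88 to 1.14. A second Trim34a probe set, below the floor, read 67.1, 100.3 and 84.7 in heterozygous arrays and 77.2, 65.7 and 57.1 in wild-type arrays, which overlap (log2 0.27). Trim34b lies in the same cluster without a member probe set, and whether the Trim34a signal includes its RNA was not tested.

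Trim30a, which restrains Toll-like receptor signalling in mouse macrophages, read 123.5, 201.4 and 236.5 in heterozygous arrays and 97.5, 89.5 and 163.6 in wild-type arrays. Heterozygous replicate 1 lay below wild-type replicate 3, so the groups overlapped. The log2 fold change was 0.61 (SE 0.27, limma adjusted p = 0.878), 0.86 with heterozygous replicate 1 left out and 0.43 with heterozygous replicate 3 left out. Its other probe set had 87, 190.9 and 190.8 in heterozygous arrays and 91.1, 108.6 and 125.7 in wild-type arrays, with replicate 1 again lowest (log2 0.41). Trim30d, a copy of it below the floor and not tested, read 42.2, 93.2 and 75.2 in heterozygous arrays, against 19.5, 23.3 and 77 in wild-type arrays. In all 3 of these probe sets wild-type replicate 3 was the highest of its group and heterozygous replicate 1 the lowest of its own.

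Trim12a, a mouse relative of primate TRIM5, read 120.6, 122.1 and 122.2 in heterozygous arrays and 70, 98.8 and 122.5 in wild-type arrays. The heterozygous values were tight and wild-type replicate 3 reached them (log2 0.31, SE 0.21, limma adjusted p = 0.917). The log2 fold change was 0.13, 0.335 and 0.47 with wild-type replicate 1, 2 or 3 left out, respectively. On these values the Trim12a difference leaned most on wild-type replicate 1. Its second probe set averaged 9.30 in heterozygous and 13.9 in wild-type arrays, far below the floor, and had the opposite sign.

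Trim21, the cytosolic receptor for antibody-coated viruses, read 485.5, 524.6 and 510 in heterozygous arrays and 356.3, 352.9 and 486.4 in wild-type arrays. The lowest heterozygous array, 485.5, and the highest wild-type array, 486.4, were nearly equal. The log2 fold change was 0.35 (SE 0.15, 95% interval 0.01 to 0.68, limma adjusted p = 0.860). At the second Trim21 probe set, also above the floor, it was 0.11 (SE 0.15), with 163.5, 171.1 and 189.5 in heterozygous arrays and 140.7, 164.3 and 179.6 in wild-type arrays.

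Trim25 ubiquitinates the RNA sensor RIG-I and also works as a ligase for ISG15. It read 2347.7, 3178.5 and 3595.6 in heterozygous arrays and 1996, 2786.8 and 2098.8 in wild-type arrays, with heterozygous replicate 1 below wild-type replicate 2. All 3 Trim25 probe sets were above the floor and gave log2 fold changes of 0.40, 0.38 and 0.42, with overlapping groups in each (SE 0.18 at the brightest, limma adjusted p = 0.876). Leaving out heterozygous replicate 1 gave 0.57 at the brightest, and leaving out replicate 3 gave 0.27. Trim26, which has been linked to turnover of IRF3, had the smallest difference of the 6. It read 421.7, 403.8 and 471.3 in heterozygous arrays and 404.5, 348.2 and 377.6 in wild-type arrays (log2 0.19, SE 0.13, limma adjusted p = 0.917).

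The other TRIM genes had no common direction. Of the 21 above the floor, 11 had a positive and 10 a negative log2 fold change, with a median of 0.01, equal to that of all tested genes to 2 decimals, and a range from -0.64 to 0.48. At an unadjusted limma p under 0.05, 0 were higher and 1 was lower, against 3.15% and 2.18% of all tested genes. The groups did not overlap for 0 genes in the higher direction and 2 in the lower, where 5.58% and 5.07% of all tested genes did so. The difference between the medians of the interferon-inducible and the other genes was 0.36, and ran from 0.29 to 0.49 as single arrays were left out.

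**Figure D2:**
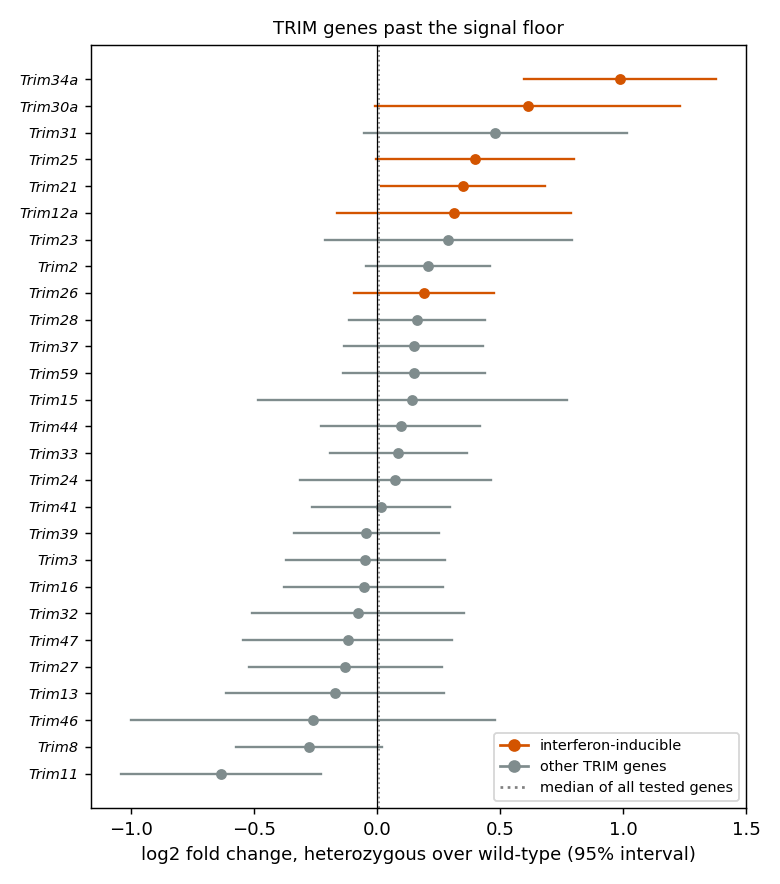
Log2 fold change of heterozygous over wild-type colon (horizontal axis, points) with 95% intervals from limma (lines) for the 27 TRIM genes above the floor, each at its brightest probe set, interferon-inducible genes in orange and other TRIM genes in grey. The dotted line is the median of all tested genes, 0.01; all 6 interferon-inducible genes lie to its right, from 0.19 to 0.99, and the other 21 lie on both sides.

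Trim11, a ligase tied to clearance of misfolded proteins in human cells, had the most negative value among members above the floor. It read 192.9, 251.4 and 174.9 in heterozygous arrays, against 265, 366.9 and 355.2 in wild-type arrays. The groups were separate, although heterozygous replicate 2 and wild-type replicate 1 came close. The log2 fold change was -0.64 (SE 0.18, 95% interval -1.04 to -0.23, limma adjusted p = 0.643), and ran from -0.78 to -0.53 as single arrays were left out.

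Trim8, which binds the cytokine signalling inhibitor SOCS1, was lower by less but with little spread. It read 187.3, 175.6 and 172.3 in heterozygous arrays and 219.7, 213.5 and 224.8 in wild-type arrays, without overlap (log2 -0.28, SE 0.13, limma adjusted p = 0.888). Its other 2 probe sets lay below the floor, at log2 -0.25 and 0.12.

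Trim31 promotes antiviral signalling through the adaptor MAVS in mouse cells. It read 885, 1638.8 and 1691.5 in heterozygous arrays and 995.7, 1091 and 821.1 in wild-type arrays. Heterozygous replicates 2 and 3 were above all wild-type arrays, and heterozygous replicate 1 was inside the wild-type range. The log2 fold change was 0.48 (SE 0.24, limma adjusted p = 0.905), 0.78 if heterozygous replicate 1 is left out and 0.32 if replicate 3 is. Trim23, which carries an ARF GTPase domain, read 204.8, 205.3 and 180.5 in heterozygous arrays and 130.3, 128 and 233.9 in wild-type arrays. Wild-type replicate 3 was the highest of all 6, and the log2 fold change was 0.29 with it and 0.55 without it, and 0.16 or 0.15 when wild-type replicate 1 or 2 was left out instead.

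**Figure D3:**
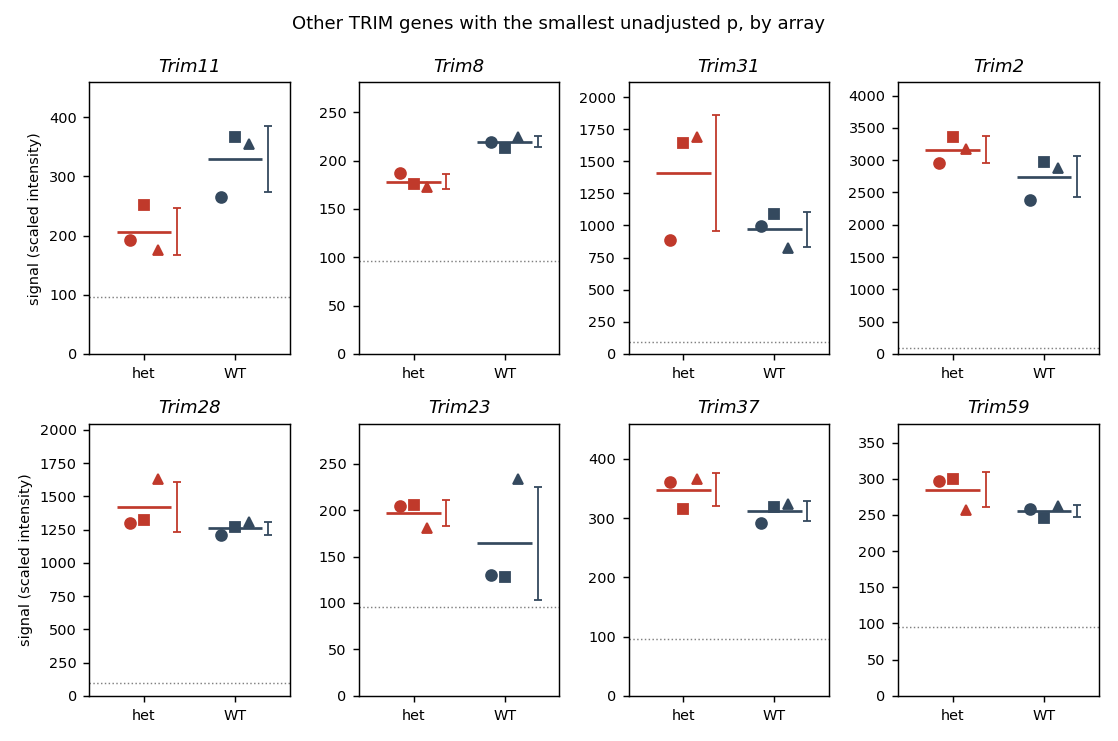
Signal (linear scaled intensity, vertical axis from 0) of the 8 other TRIM genes with the smallest unadjusted limma p, at their brightest probe set, 1 point per array (circle, square and triangle for replicates 1, 2 and 3), heterozygous left and wild-type right, with means, SD bars (n = 3 each) and the floor as a dotted line. Trim11 and Trim8 are lower in all heterozygous arrays, and the groups overlap for the other 6.

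The chromatin cofactors of the TIF1 group were near the median of all genes. Trim28 read 1297.8, 1325.8 and 1633.8 in heterozygous arrays and 1205.9, 1268.2 and 1304.6 in wild-type arrays (log2 0.16, SE 0.12, 95% interval -0.11 to 0.44). Trim33, which acts on Smad4, had a log2 fold change of 0.09 (95% interval -0.19 to 0.36), and Trim24, a cofactor of nuclear receptors, one of 0.07 (95% interval -0.32 to 0.46). The genotypes overlapped for all 3. Trim28 was 0.06 without heterozygous replicate 3. Trim33 was 0.02 with that array left out, 0.03 with wild-type replicate 1 left out and 0.14 with wild-type replicate 3 left out. Trim24 was 0.22 without wild-type replicate 3, and turned to -0.01 when heterozygous replicate 1 was left out and to -0.02 when wild-type replicate 2 was. Among partners of this group, 6 of 10 genes on the array were above the floor, with a median log2 of 0.03. At an unadjusted p under 0.05, 0 were higher and 1 was lower, against 3.15% and 2.18% of all tested genes, and 5.07% of all tested genes had separate groups in the lower direction. That gene, Chd4, a chromatin remodeller of the NuRD complex, read 443.5, 437.6 and 481.6 in heterozygous arrays and 561, 622.8 and 718.9 in wild-type arrays, without overlap (log2 -0.46, SE 0.13, limma adjusted p = 0.643). Setdb1, the methyltransferase that Trim28 recruits, had 0.22 and the heterochromatin protein gene Cbx1 0.06, both with overlapping groups.

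The 3 NHL-repeat ligases had values of both signs. Trim2 read 2950.2, 3364.4 and 3168.2 in heterozygous arrays and 2388.8, 2967.8 and 2880.6 in wild-type arrays. The lowest heterozygous array was just under the highest wild-type array (log2 0.21, SE 0.11, limma adjusted p = 0.912; 0.11 if wild-type replicate 1 is left out), and its 3 further probe sets gave 0.14, 0.10 and 0.34, all with overlap. Trim3 had a log2 fold change of -0.05 and Trim32, the ligase mutated in a human limb-girdle muscular dystrophy, of -0.08. Both turned positive without wild-type replicate 3, at 0.02 and 0.12, and Trim3 also without heterozygous replicate 2, at 0.01. The lowest values with 1 array left out were -0.14 for Trim3 (wild-type replicate 1) and -0.21 for Trim32 (wild-type replicate 2). Of the microtubule-binding members, Trim46, which organises axonal microtubules, was just above the floor with 91.8, 100.8 and 109.2 in heterozygous arrays and 88.7, 86.8 and 235.4 in wild-type arrays. Its log2 fold change of -0.26 rests on wild-type replicate 3 and was 0.17 without that array, against -0.47 and -0.48 when wild-type replicate 1 or 2 was left out. Trim54 was below the floor in all arrays, at most 3.3 in heterozygous and 8 in wild-type arrays.

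Among further members with bright probe sets, Trim27 had a log2 fold change of -0.13, Trim44 of 0.10 and Trim41, a ligase of protein kinase C, of 0.01. Trim59, a transmembrane member, had 0.15 (SE 0.13). All 4 overlapped between the groups. Trim27 turned to 0.02 when heterozygous replicate 3 was left out, Trim44 to -0.01 when wild-type replicate 1 was and Trim41 to -0.05 when wild-type replicate 2 was. Trim37, mutated in human mulibrey nanism, had 4 probe sets above the floor that pointed in both directions. The brightest gave 0.15 and read 360.2, 315.6 and 366.7 in heterozygous arrays and 292.4, 319.3 and 323.6 in wild-type arrays. The third brightest gave -0.25 with separate groups, at 179.1, 171.4 and 160.3 in heterozygous arrays and 186, 233.7 and 200.8 in wild-type arrays, and the mean of the 4 was -0.03. Opposed signs occurred in 7 of the 16 genes with several probe sets. Trim62 was the 1 gene whose probe sets had separate groups in opposite directions, at 15.1, 11.9 and 17.3 in heterozygous and 55.5, 59.9 and 53 in wild-type arrays for one and 38.4, 44 and 31.7 in heterozygous and 30.9, 12.7 and 28.7 in wild-type arrays for the other. All of these lay below the floor.

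Position in the genome was compared with these values through the order of genes in the GRCm38.p6 table. On chromosome 7, Trim6, Trim34a, Trim5, Trim12a, Trim34b, Trim12c, Trim30b, Trim30c, Trim30a and Trim30d follow each other, with 1 predicted gene between Trim12c and Trim30b. The cluster genes with a member probe set had log2 fold changes of 0.05 (Trim6, below the floor), 0.99 (Trim34a), 0.31 (Trim12a), 0.61 (Trim30a) and 0.72 (Trim30d, below the floor). On chromosome 17, next to class I histocompatibility genes, Trim26, Trim15, Trim10, Trim40 and Trim31 are neighbours. Trim26 had 0.19, Trim15 0.14 (232.6, 231.9 and 331.7 in heterozygous arrays and 287.2, 317.7 and 141.2 in wild-type arrays, and -0.20 without wild-type replicate 3 or -0.02 without heterozygous replicate 3), Trim10 -0.10 below the floor and Trim31 0.48. Trim11 and Trim25, both on chromosome 11, are not neighbours and differed in sign.

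Interferon-induced genes outside the family were set beside the members, since both were measured on the same arrays. Of 18 such genes on the array, Cxcl10 (log2 0.91), Mx2 (0.52) and Mx1 (-0.325) were below the floor and not tested. All 15 above the floor were positive, with a median log2 of 1.13. At an unadjusted limma p under 0.05, 12 were higher and 0 lower, where 3.15% of all tested genes were higher and 2.18% lower. For 11 the groups did not overlap in the higher direction, where this held for 5.58% of all tested genes. This list, like those that follow, was chosen with earlier results of these arrays known, so its counts are descriptions. The smallest p values were those of Ifit1 (log2 1.91), Rtp4 (1.91) and Rsad2 (1.45), effectors of the antiviral response, with limma adjusted p of 0.0583, 0.0583 and 0.0687. Above the floor the lists overlapped, with log2 values of 0.43 to 2.28 outside the family and 0.19 to 0.99 among the interferon-inducible TRIM genes. The difference between them was not tested. In both lists heterozygous replicate 1 was the lowest of its group. The mean of centred log2 values over the 6 TRIM genes came to 0.05, 0.30 and 0.35 in heterozygous arrays, against -0.40, -0.29 and -0.02 in wild-type arrays, each in the order of replicates 1, 2 and 3. Over the 15 genes outside the family the same mean was 0.11, 0.86 and 0.89 in heterozygous arrays, against -0.57, -0.86 and -0.43 in wild-type arrays. For the 21 other TRIM genes it stayed between -0.03 and 0.03 in heterozygous arrays and between -0.08 and 0.12 in wild-type arrays, with wild-type replicate 3 highest.

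**Figure D4:**
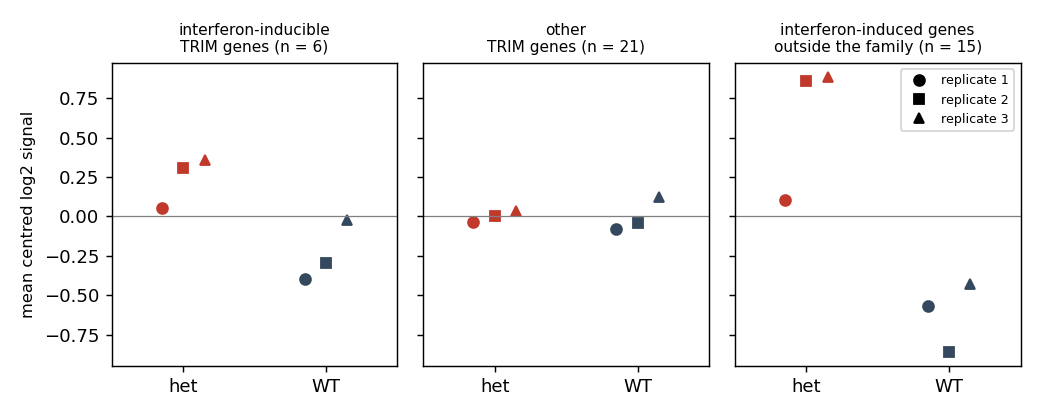
Mean centred log2 signal per array (vertical axis; each gene centred on its mean over the 6 arrays) for the 6 interferon-inducible TRIM genes, the 21 other TRIM genes and the 15 interferon-induced genes outside the family, heterozygous left and wild-type right, 1 point per array. Heterozygous replicate 1 is the lowest of its group for both interferon lists, at 0.05 and 0.11, and wild-type replicate 3 the highest of its own, at -0.02 and -0.43.

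Genes that signal to or cooperate with these ligases had smaller median differences. Of 16 interferon signalling and sensor genes, all above the floor, 14 were positive with a median log2 of 0.16. At an unadjusted limma p under 0.05, 3 were higher and 0 lower, against 3.15% and 2.18% of all tested genes. The 3 were Ifih1, the RNA sensor MDA5, with 1801.1, 2388.3 and 2644.6 in heterozygous arrays and 1435.5, 1706.4 and 1250.6 in wild-type arrays (log2 0.63), and the transcription factors Irf7 (0.90) and Irf9 (0.65), which overlapped between the groups. Mavs, the adaptor on which Trim31 acts, had 0.16 and overlapped. Of 9 ubiquitin-conjugating enzymes above the floor, partners of RING ligases, 4 were positive. Of these 9, 0 reached an unadjusted limma p under 0.05 in either direction. Ube2w had 0.35, Ube2n 0.18 and Ube2e1 -0.13. Among TRIM-type proteins under other symbols, Pml, the interferon-induced core of nuclear bodies, read 175.3, 198.4 and 256 in heterozygous arrays and 126.6, 131.7 and 171.2 in wild-type arrays. Its groups were separate (log2 0.50, SE 0.19, limma adjusted p = 0.805). Mid2 had 0.02, and Mid1 and Mefv were below the floor.

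Some leukocyte markers were also higher in heterozygous colon. Macrophage and dendritic cell markers were positive for 8 of 9 genes above the floor, of 10 on the array, where 51.5% of all tested genes were positive. At an unadjusted limma p under 0.05, 3 were higher and 0 lower, and 4 had separate groups in the higher direction (3.15%, 2.18% and 5.58% of all tested genes). These 4 were Itgax (log2 0.60), Fcer1g (0.53), Cd14 (0.45) and Csf1r (0.27), genes of myeloid surface and receptor proteins, with differences in the range of the interferon-inducible TRIM genes. Over all 10 of these markers on the array, the summed signal was 5419.1 to 7204.9 in heterozygous arrays, lowest in replicate 1. In wild-type arrays it was 4989.3 to 5798.1. T-cell markers summed to 390.7, 696.9 and 954.7 in heterozygous arrays and 391.2, 432.8 and 405.8 in wild-type arrays. Cd3d (log2 0.92) and Cd3g (0.65) were above the floor and overlapped between the groups. Of these 2 genes, 1 was higher and 0 lower at an unadjusted limma p under 0.05, against 3.15% and 2.18% of all tested genes. The other 4 of the 6 on the array, Cd4 and Cd8a among them, were below the floor without being at 0. B-cell markers summed to 197.7 to 529.3 in heterozygous arrays and 154.9 to 699.5 in wild-type arrays. Epithelial markers summed to 86242.2 to 97912.2 in heterozygous arrays and 88378.1 to 101097.5 in wild-type arrays. The part of leukocyte number in the TRIM differences was not tested.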

How the data were processed

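Total RNA of 6 proximal colons was amplified, labelled with biotin and hybridised to 1 array each, per the labels' protocols. The authors deposited linear intensity values, 1 per probe set and array, and GCOS is named in the submitters' processing notes; its version and settings: not given in the sources used here. All deposited columns have a common mean of 500.2 after the top and bottom 2% are left out. No detection call or background column was used here, and the 3 arrays per genotype limit the precision.

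Of 22690 probe sets, 64 were controls. Names came from the platform annotation (20380 probe sets with 1 symbol, 691 with several, 1555 with none), and the gene table altered 0 symbols. Values entered as log2(signal + 16), which understates fold changes of dim genes. Array medians differed by 0.09 on that scale, under the bound of 0.3, so the arrays were used as deposited. Probe sets under the 40th percentile of mean signal were left out, which left 13576 probe sets and 8243 genes. The genotype contrast was fitted in limma 3.58.1 under R 4.3.3 (lmFit, eBayes with a variance trend, two-sided). The p values were adjusted by Benjamini-Hochberg over all tested probe sets, with a threshold of 0.05. Where a gene had several probe sets with 1 symbol, the brightest stood for it. Lists were described by counts and medians without a test.

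Named are Mthfd1, the interferon-inducible members, the TIF1, NHL and COS-box members, of the other TRIM genes the 8 with the smallest p and the 8 with the highest mean signal, members with probe sets separate in opposite directions, and up to 3 genes of each pathway list by smallest p. Mavs, Mid1, Mid2, Mefv, Cxcl10, Mx1, Mx2, Trim6, Trim10, Trim15, Trim29, Trim69 and the marker genes are named outside that rule, after their values were seen. The members and all lists were chosen with earlier results of these data known. Alternatives covered normalization, pseudocount, filter, variance model, array weights, probe sets per gene, replicate block and each array left out. Those for Trim15 and for the interferon-induced genes outside the family, and the count above the floor at the 60th percentile, were added after seeing the data.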

Additional observations from a re-analysis of the deposited data

How the results depend on the processing

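Over the 17 alternatives that give a count of calls, the count of TRIM probe sets past the limma threshold stayed at 0, and all interferon-inducible TRIM genes above the floor kept positive fold changes. Over all probe sets the count past the threshold was 8 with robust variance, 4 with array weights, and 0 to 38 as single arrays were left out (38 without heterozygous replicate 1, 2 without wild-type replicate 3). The median log2 fold change ran from 0.29 to 0.48 for the interferon-inducible genes and from -0.024 to 0.119 for the other TRIM genes (0.119 without wild-type replicate 3) with single arrays left out. The difference of medians ran from 0.29 to 0.49 there (0.49 without heterozygous replicate 1). With the 4 members Trim34a, Trim30a, Trim25 and Trim21 it was 0.49, but these have the largest values of the class, which fixes a rise in advance. The median of the interferon-induced genes outside the family ran from 0.91 to 1.42 with single arrays left out. With the floor at the 60th percentile, 17 TRIM genes remained, since fewer genes pass. Of 23 named TRIM genes, 9 changed sign somewhere and 14 did not. Trim37 was -0.031 as the mean of its tested probe sets. With single arrays left out, the log2 fold change ran from -0.046 to 0.079 for Trim41, -0.017 to 0.218 for Trim24, -0.14 to 0.024 for Trim3, -0.239 to 0.024 for Trim27, -0.012 to 0.211 for Trim44, -0.206 to 0.119 for Trim32, -0.196 to 0.347 for Trim15 and -0.479 to 0.166 for Trim46; the cause was not tested. With the replicate number as a block, the count of TRIM probe sets past the threshold was 0, and 4 rather than 2 of the 6 interferon-inducible genes had an unadjusted p under 0.05. The numbers do not pair the animals by the labels, and deviations of same-numbered arrays correlated at -0.12, 0.50 and 0.05, with heterozygous replicate 1 closest to wild-type replicate 3 (0.42).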
